A study of Xenopus laevis with 9 samples.

Results

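pmp22.S is the .S copy of the gene for peripheral myelin protein 22, a small membrane protein that crosses the membrane 4 times. It was chosen by its log2 differences between the arrays of ligand-treated and control frog cells, and it is described here with its relatives, all probe sets whose gene symbol without the copy suffix .L or .S was pmp22, emp1, emp2, emp3 or a numbered claudin. These were 18 of 15491 probe sets that were not controls, and they stand for 14 genes, of which 5 are pmp22 or emp genes and 9 are claudin genes. In the genome of Xenopus laevis many genes are present as paired copies, or homeologs, named .L and .S. The RefSeq gene table of the assembly Xenopus_laevis_v10.1 names 44 genes of this family, and the 30 without a named probe set were not analysed here.

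The cells were XLK-WG, an established frog kidney line, grown to near confluence. There were 3 groups of 3 arrays, described in the labels as biological replicates with no word on separate cultures. The control group received the solvent DMSO at 0.25%, and the others 100 nM TCDD or 100 nM FICZ in the same amount of DMSO, each for 3 h. FICZ forms from tryptophan under light, TCDD is the most studied dioxin, and both activate the aryl hydrocarbon receptor, a ligand-activated transcription factor that drives cyp1a1. Titles of the DMSO samples include the letters CH, which no TCDD or FICZ title has, and whatever they mark cannot be told apart from the control group.

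PMP22, the EMP proteins and the claudins belong to one superfamily of 4-pass membrane proteins. PMP22 is best known from the compact myelin of peripheral nerve, where extra or missing copies of the human gene cause inherited neuropathies, and it was also found as a gene of growth-arrested fibroblasts and at cell junctions of epithelia. The EMP proteins are its nearest relatives and are found in many epithelia. Claudins form the strands of tight junctions and set which ions and molecules pass between the cells of an epithelium, as in the segments of the kidney tubule.

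Signals are given as log2 values after quantile normalization, so that a difference of 1 is a 2-fold change, and differences between groups were tested with limma over 11618 probe sets whose mean lay above the lowest 25 percent (log2 4.88). Of the 18 family probe sets 11 lay above that level and were tested, and 7 lay below it. Precision is limited by the number of arrays. DMSO replicate 2 accounted for 22.6% of the within-group variation and lay apart from the other arrays. cyp1a1.L was 28.3-fold higher with FICZ and 8.62-fold higher with TCDD than with DMSO. Among markers of kidney epithelium, the keratin probe set krt19.S had a DMSO mean of 12.14, while the cadherin gene cdh1.S and the adhesion gene epcam.L lay below the filter level on average.

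pmp22.S, measured by 1 probe set, was lowest with DMSO, higher with TCDD and highest with FICZ. With DMSO its log2 signal was 10.14, 10.54 and 10.09 in replicates 1 to 3, with TCDD 10.80, 10.77 and 10.64, and with FICZ 11.23, 11.40 and 11.38. As linear signals these are 1093 to 1492 with DMSO, 1597 to 1789 with TCDD and 2405 to 2704 with FICZ. No array of one group overlapped the arrays of another, although the lowest TCDD array lay just 0.098 above the highest DMSO array, which was DMSO replicate 2. The lowest FICZ array lay 0.43 above the highest TCDD array.

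The group means of pmp22.S were 10.26 ± 0.25 (SD, n = 3) with DMSO, 10.74 ± 0.09 (SD, n = 3) with TCDD and 11.34 ± 0.09 (SD, n = 3) with FICZ. FICZ stood 2.11-fold above DMSO (log2 difference 1.08), TCDD 1.39-fold above DMSO (0.48), and FICZ 1.52-fold above TCDD (0.60). Because the gene was chosen for this response, these values are a description and carry no test. In total RNA of a culture, more transcript per cell cannot be told apart from more cells that hold it.

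Counted from the largest increase down, with decreases last, pmp22.S ranked 25 of 11618 tested probe sets for FICZ against DMSO. Among the 7408 with 1 gene name it ranked 11. For TCDD against DMSO it ranked 76. The same stepped order without overlap, DMSO below TCDD below FICZ, was found in 46 tested probe sets (0.396%). On the log2 scale the TCDD difference of pmp22.S was 44.3% of its FICZ difference, against 64.5% for cyp1a1.L and 79% for cyp1a1.S. Such a share depends on the scale, and the FICZ difference of pmp22.S is a value it was chosen by. As folds over DMSO, TCDD and FICZ stood at 1.39 and 2.11 for pmp22.S and at 8.62 and 28.3 for cyp1a1.L. On that linear scale the share of pmp22.S was not the smaller of these. Leaving out DMSO replicate 2 moved the difference of pmp22.S from 1.08 to 1.22 with FICZ and from 0.48 to 0.62 with TCDD.

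**Figure D1:**
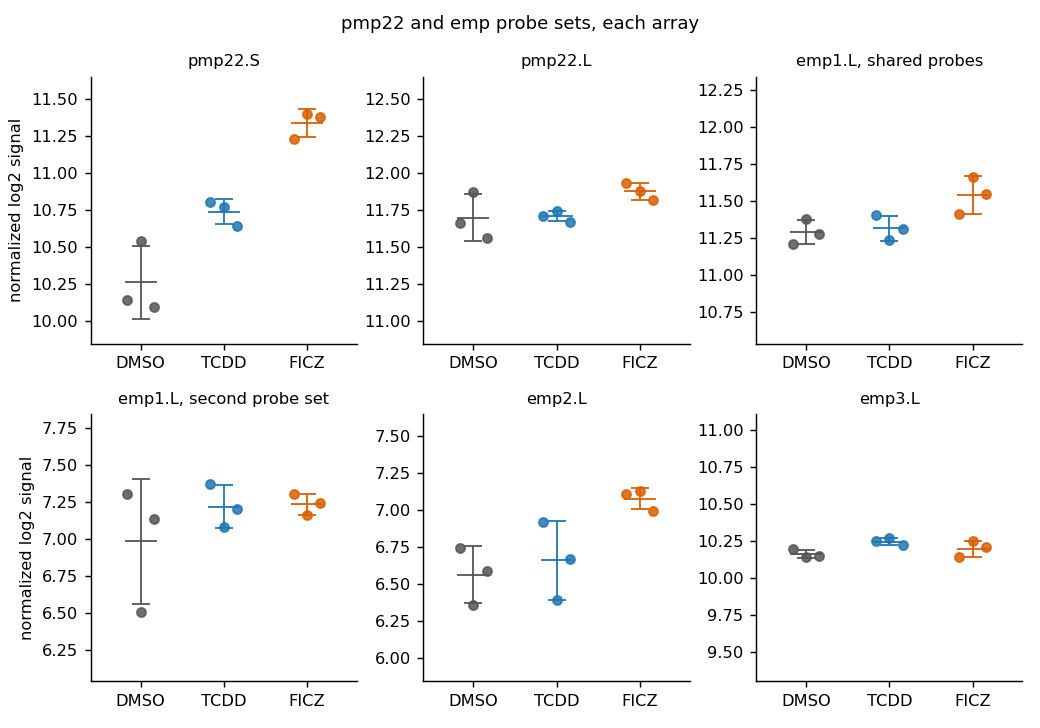
Normalized log2 signal of the 6 pmp22 and emp probe sets on each of 9 arrays, by group; points are arrays, the long bars are group means and the whiskers 1 SD (n = 3), and every vertical axis spans 1.8 log2 units. The pmp22.S arrays form 3 separate levels, from 10.09 to 10.54 with DMSO to between 11.23 and 11.40 with FICZ, while the groups of pmp22.L, emp1.L, emp2.L and emp3.L lie closer together.

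The other copy, pmp22.L, differed far less between groups. Its log2 signal was 11.66, 11.88 and 11.56 with DMSO, 11.71, 11.74 and 11.67 with TCDD, and 11.94, 11.88 and 11.82 with FICZ. The FICZ arrays overlapped the DMSO arrays only at DMSO replicate 2, the array that was also the highest of its group for pmp22.S, and they lay above all TCDD arrays. The log2 difference of FICZ against DMSO was 0.18 (95% confidence interval 0.02 to 0.33) and did not pass the limma test (adjusted p 0.56). Without DMSO replicate 2 it was 0.27 and passed narrowly (limma adjusted p 0.0497). For TCDD against DMSO it was 0.01 (-0.14 to 0.16, limma adjusted p 0.99).

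The copies of pmp22 thus stood apart in size of response. The FICZ difference of the .S copy exceeded that of the .L copy by 0.90 on the log2 scale, the TCDD difference by 0.47. Among 762 genes with both copies tested, each copy by its probe set of highest mean, the median gap between copies was 0.11 for FICZ against DMSO, and pmp22 had the fifth largest gap, rank 5, after cyp1a1 at rank 1 and 3 other genes. For TCDD against DMSO it had rank 20. The pair cldn5.L and cldn5.S, the other complete pair of the family among the tested probe sets, differed by 0.09 and had rank 410. These gaps carry no test, since the gene was chosen for the change of its .S copy, and how far each probe set picks up RNA of the other copy was not tested.

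**Figure D2:**
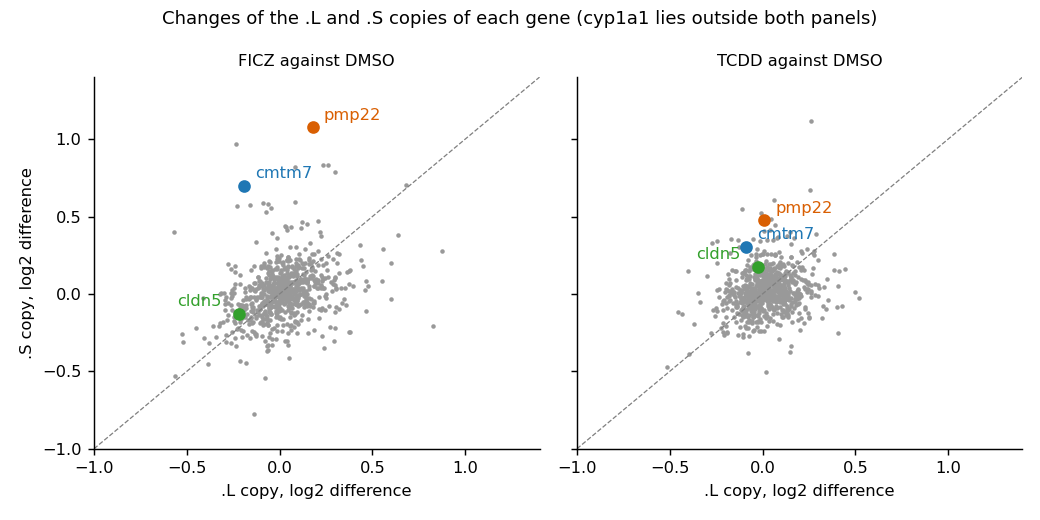
Log2 differences of the .S copy (vertical axis) against the .L copy (horizontal axis) for 762 genes with both copies tested, FICZ against DMSO on the left and TCDD against DMSO on the right; the dashed line marks equal change, and cyp1a1 lies outside the range drawn. pmp22 stands above the line, with 1.08 for the .S copy against 0.18 for the .L copy with FICZ, cmtm7 also stands above it in the left panel, with 0.70 against -0.19, and cldn5 lies close to the line there.

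On the chromosome, the genes beside the copies of pmp22 could be followed in part. Of the 10 genes nearest pmp22.S in the RefSeq order, 5 on each side, 1 had a named probe set. This was tvp23b.S, a gene for a membrane protein of the Golgi, whose 2 probe sets had log2 differences of -0.02 and -0.10 with FICZ (limma adjusted p 0.99 and 0.91). Around pmp22.L, 3 genes had a named probe set, and none passed with FICZ. metrnl.L, the gene of a secreted meteorin-like protein, had a FICZ difference of 0.25 (limma adjusted p 0.79) and a TCDD difference of 0.42, both above those of pmp22.L. tvp23b.L had FICZ and TCDD differences of 0.05 and 0.17, and cox10.L, which encodes an enzyme of heme A synthesis, had -0.08 and -0.01.

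Of the epithelial membrane protein genes, emp2.L and emp1.L lay somewhat higher with FICZ, and emp3.L differed by at most 0.08 on the log2 scale between any 2 groups. In mammals EMP2 has been linked to the trafficking of integrins and caveolins. The log2 signal of emp2.L was 6.74, 6.36 and 6.58 with DMSO, 6.92, 6.39 and 6.67 with TCDD, and 7.10, 7.13 and 6.99 with FICZ. All FICZ arrays lay above all DMSO and TCDD arrays, and the TCDD arrays spread over the DMSO range. The FICZ difference was 0.51 (95% confidence interval 0.18 to 0.85), a 1.43-fold difference with an unadjusted p of 0.0053 that did not pass the limma test over all probe sets (adjusted p 0.28). FICZ against TCDD gave 0.42 (0.08 to 0.75, limma adjusted p 1.00) and TCDD against DMSO 0.10 (-0.24 to 0.43, limma adjusted p 0.97).

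emp1.L was measured by a pair of probe sets. The first, whose identifier ends in _s_at, the maker's mark for probes shared by several transcripts, read 11.21, 11.38 and 11.28 with DMSO, 11.40, 11.23 and 11.31 with TCDD, and 11.41, 11.66 and 11.55 with FICZ. Its FICZ arrays lay above all others, the lowest of them by a very small margin over TCDD replicate 1. The FICZ difference was 0.25 (95% confidence interval 0.09 to 0.41, limma adjusted p 0.28), and that for TCDD 0.03 (-0.14 to 0.19). The second had the same FICZ difference, 0.25, but with an interval of -0.13 to 0.63. It read 6.51 on DMSO replicate 2 against 7.30 and 7.14 on the other DMSO arrays, and without that array its difference was 0.01.

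emp3.L, whose protein is a further member of the family, read 10.14 to 10.19 with DMSO, 10.22 to 10.27 with TCDD and 10.14 to 10.25 with FICZ. The TCDD arrays lay just above the DMSO arrays, by a difference of 0.08 (-0.07 to 0.24, limma adjusted p 0.97). The FICZ difference was 0.04 (-0.12 to 0.19, limma adjusted p 0.94). For pmp22.L, emp2.L and both probe sets of emp1.L the upper bounds of the FICZ intervals were at most 0.85. The pmp22.S difference of 1.08 is the value the gene was chosen by and has no interval, so a contrast between it and these relatives was not tested.

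**Figure D3:**
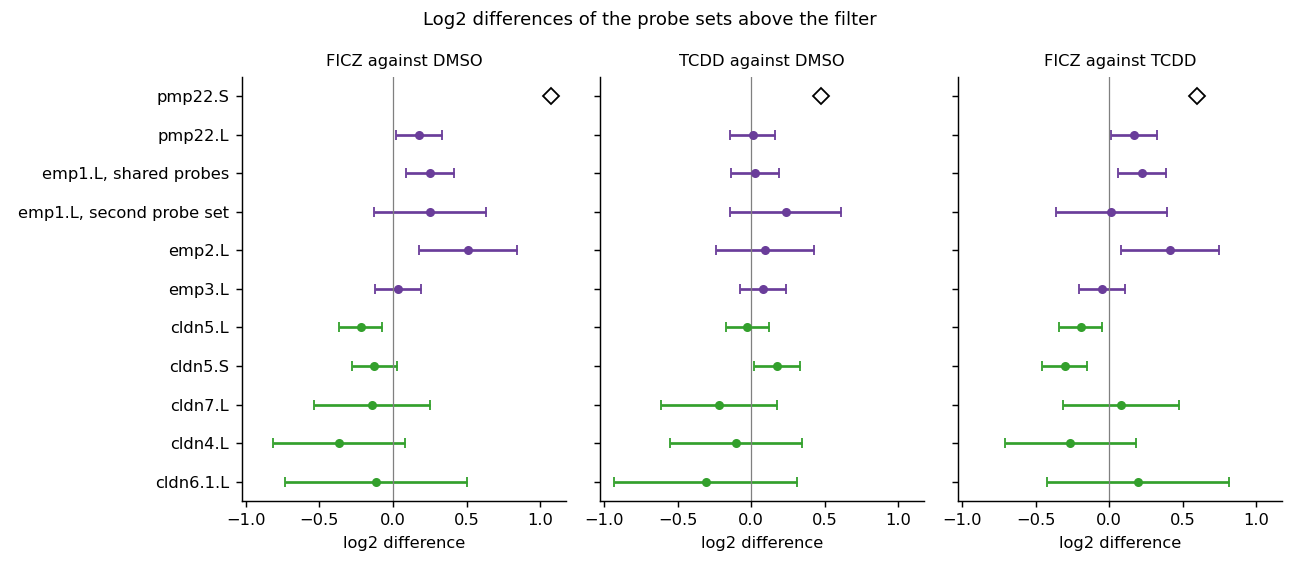
Log2 differences (horizontal axis) of the 11 family probe sets above the filter, for FICZ against DMSO, TCDD against DMSO and FICZ against TCDD; filled points are differences of group means with limma's 95% confidence intervals, in purple for pmp22.L and the emp genes and in green for claudins, and the open diamond is pmp22.S, given without an interval. In the FICZ panel the 5 purple points lie above 0, from 0.04 to 0.51, and the 5 green points below it, from -0.37 to -0.11, with pmp22.S at 1.08.

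The claudins did not follow pmp22.S. Those above the filter were cldn5.L and cldn5.S, copies of the claudin best known from endothelial barriers, cldn7.L and cldn4.L, claudins of epithelia including the distal parts of the kidney tubule, and cldn6.1.L, from a claudin known in mammals from embryonic epithelia. None passed the test in any comparison. With FICZ all 5 had differences below 0 against DMSO, from -0.37 to -0.11 with a median of -0.14, while the 5 pmp22.L and emp probe sets had differences above 0 with a median of 0.25. Over all tested probe sets 49.3% had differences above 0 and the median was -0.0025. For TCDD against DMSO 6 of these 10 differences lay above 0 (50.4% of all), in a similar split. All 5 pmp22.L and emp differences lay above 0 (median 0.08), and 4 of the 5 claudin differences below it (median -0.10). For FICZ against TCDD 6 lay above 0 (48.3% of all), 4 of pmp22.L and emp and 2 of claudins. A pair of the 5 pmp22.L and emp probe sets belongs to 1 gene, emp1.L. For FICZ against DMSO, leaving out 1 array turned the sign for cldn7.L (0.01 without FICZ replicate 1) and for cldn6.1.L (0.14 without DMSO replicate 3, and 0.13 without FICZ replicate 3). For TCDD against DMSO the sign turned for 6 of the 10 in 1 or more of 17 alternatives.

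cldn5.L read 11.26, 11.32 and 11.32 with DMSO, 11.36, 11.25 and 11.22 with TCDD, and 11.15, 11.13 and 10.97 with FICZ. The 3 FICZ arrays were the lowest of the 9. The difference was -0.22 against DMSO (95% confidence interval -0.37 to -0.07, limma adjusted p 0.31) and -0.19 against TCDD (-0.34 to -0.05, limma adjusted p 1.00).

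cldn5.S read 10.75, 10.66 and 10.68 with DMSO, 10.84, 10.93 and 10.85 with TCDD, and 10.49, 10.56 and 10.67 with FICZ. The TCDD arrays were the highest of the 9, and FICZ and DMSO overlapped. The ligands differed by -0.30, FICZ below TCDD (-0.46 to -0.15), with an unadjusted p of 0.00089, the smallest among the 10 tested probe sets of relatives in any comparison, and an adjusted p of 0.22 by limma. TCDD against DMSO gave 0.18 (0.02 to 0.33, limma adjusted p 0.97) and FICZ against DMSO -0.13 (-0.28 to 0.03, limma adjusted p 0.74).

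The remaining claudins above the filter varied more between arrays. cldn4.L read 4.99 to 5.65 with DMSO, 5.19 to 5.31 with TCDD and 4.87 to 5.06 with FICZ. Its FICZ difference of -0.37 had an interval of -0.81 to 0.08. cldn7.L read 6.64 to 6.76 with DMSO but 6.17 to 6.87 with TCDD and 6.27 to 6.79 with FICZ, and cldn6.1.L spread from 4.98 to 5.83 with DMSO alone. For these 3 genes the groups of DMSO and FICZ overlapped, and the intervals of all 3 comparisons included 0.

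**Figure D4:**
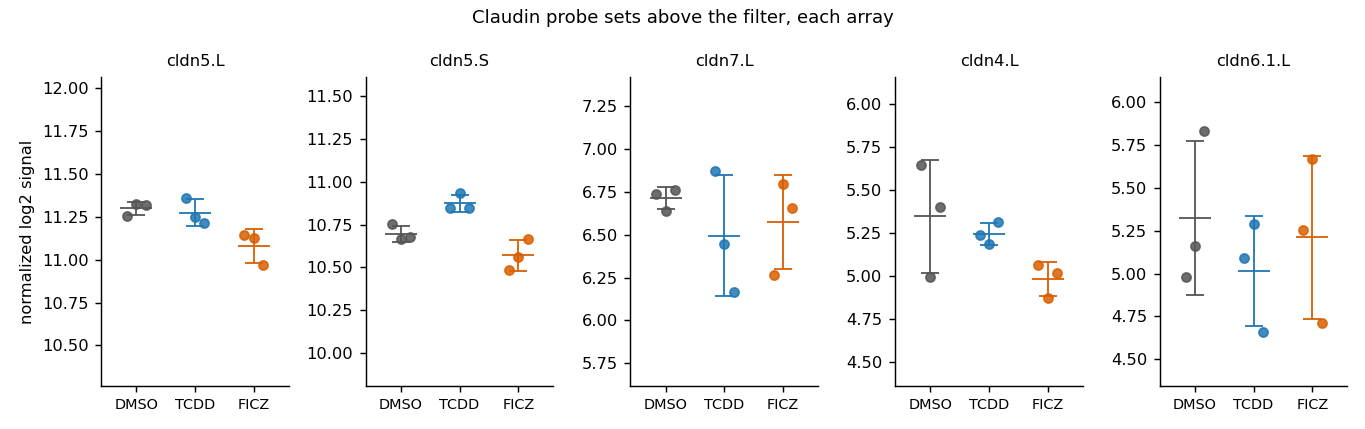
Normalized log2 signal of the 5 claudin probe sets above the filter on each of 9 arrays, by group; points are arrays, the long bars group means and the whiskers 1 SD (n = 3), and every vertical axis spans 1.8 log2 units. The cldn5 copies are tight within groups, with FICZ lowest for cldn5.L and TCDD highest for cldn5.S, while cldn7.L, cldn4.L and cldn6.1.L spread more within groups.

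The 7 probe sets below the filter belonged to 5 claudin genes, and their single values ran from 1.94 to 5.11. They were both probe sets of cldn1.S, a claudin of skin and other barrier epithelia, a further pair of cldn7.L, and those of cldn6.1.S, cldn6.2.L and cldn6.2.S. Whether they lay above background is not known here. Their FICZ differences ran from -0.58 to 0.53 with a median of -0.03, and none of the 7 was free of overlap between FICZ and DMSO arrays. The probe sets of cldn1.S had FICZ differences of -0.58 and 0.53, in opposite directions.

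Counted together, 0 of the 10 tested probe sets of relatives passed limma's adjusted p of 0.05 for FICZ against DMSO, where 0.603% of all tested probe sets passed, 0 for TCDD against DMSO, where 0.0258% passed, and 0 for FICZ against TCDD, where 0.207% passed. At an unadjusted p under 0.05 there were 4 of 10 for FICZ against DMSO (7.42% of all tested probe sets), 1 for TCDD against DMSO (3.44%) and 5 for FICZ against TCDD (3.07%). With FICZ the 4 were pmp22.L, emp2.L and the first emp1.L probe set, with differences above 0, and cldn5.L, with one below 0. The arrays did not overlap in 3 of 10 for FICZ against DMSO (12.3% of all), with FICZ higher in 2 (6.23%) and lower in 1 (6.03%). For TCDD against DMSO they did not overlap in 2 (7.82%), with TCDD higher in 2 (4.21%) and lower in 0 (3.61%). For FICZ against TCDD they did not overlap in 6 (10.3%), with FICZ higher in 3 (5.12%) and lower in 3 (5.16%). The comparisons with DMSO share the same control arrays, and those with FICZ the same FICZ arrays, so these counts are not independent. limma with array weights called 1 of the 10 for FICZ against DMSO, pmp22.L. For FICZ against TCDD it called 4, pmp22.L, emp1.L and emp2.L as higher with FICZ and cldn5.S as lower. Over all tested probe sets the weights raised the calls from 70 to 154 for FICZ against DMSO. For FICZ against TCDD they raised them from 24 to 358.

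The wider setting of junction and 4-pass proteins was followed through 4 lists with 62 tested probe sets, of which 1 passed for FICZ against DMSO, as higher (0.525% of all tested probe sets passed as higher), 0 for TCDD against DMSO (0.0258%) and 0 for FICZ against TCDD (0.198% passed as higher). At an unadjusted p under 0.05 there were 9 for FICZ against DMSO (7.42% of all tested probe sets), 5 for TCDD against DMSO (3.44%) and 4 for FICZ against TCDD (3.07%). Of 6 tested probe sets of myelin and proteolipid 4-pass proteins, 4 had FICZ differences above 0 and 2 below it, and 1 passed as higher. This was cmtm7.S, from a family of 4-pass proteins with a MARVEL domain, the domain also found in occludin. It read 8.16, 7.71 and 8.0 with DMSO, 8.21, 8.32 and 8.26 with TCDD, and 8.68, 8.53 and 8.75 with FICZ, and the 3 groups did not overlap. The FICZ difference was 0.70 (SE 0.13, 1.62-fold, limma adjusted p 0.019), and the call ended without any 1 FICZ array, with a highest adjusted p of 0.14. The .L copy, cmtm7.L, had a difference of -0.19 (limma adjusted p 0.76). The gap between its copies, 0.89, had rank 6 of the 762 pairs, next to that of pmp22.

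Tight junction scaffold and membrane proteins gave no call in 13 tested probe sets, 4 with a FICZ difference above 0 and 9 below it (median -0.05). With TCDD 5 differences lay above 0 and 8 below it (median -0.13). cgn.L, the gene of the plaque protein cingulin, had the largest negative FICZ difference. It read 9.92, 10.52 and 9.74 with DMSO, 9.77, 9.49 and 9.57 with TCDD, and 9.47, 9.30 and 9.30 with FICZ. The FICZ arrays lay below all DMSO arrays, and the difference of -0.70 (95% confidence interval -1.04 to -0.36) did not pass (limma adjusted p 0.077), nor did that of the related cgnl1.L (-0.33, limma adjusted p 0.63). In cgn.L the high value of DMSO replicate 2 counted for much, since without that array the difference was -0.47, and without DMSO replicate 3 it was -0.86 and passed (limma adjusted p 0.035). With 1 array left out the limma adjusted p of cgn.L reached as high as 0.36. cgnl1.L was likewise high on DMSO replicate 2, at 9.91 against 9.23 and 9.34 on the other DMSO arrays. Its FICZ arrays read 9.14, 9.14 and 9.22.

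Of 23 tested probe sets of adherens junctions and desmosomes none passed with FICZ, 10 differences lay above 0 and 13 below it, and the median was -0.02. The smallest p values were those of jup.S, the gene of plakoglobin (0.22, limma adjusted p 0.46), and pkp2.L, the gene of plakophilin 2 (0.30, limma adjusted p 0.59). Of 20 tetraspanin probe sets none passed, 11 differences lay above 0 and 9 below it, and the median was 0.08. cd82.L, a tetraspanin gene, read 8.17 to 8.55 with DMSO, 8.58 to 8.71 with TCDD and 8.80 to 9.02 with FICZ, and its difference of 0.55 lay just short of the threshold (limma adjusted p 0.052). It passed without DMSO replicate 3 (limma adjusted p 0.038) and on the deposited values (0.030). With 1 array left out its limma adjusted p reached as high as 0.31.

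A further list of 9 tested probe sets held transcription factor genes named as possible regulators of PMP22 from work in mammals. Of the 9, 1 was called for FICZ against DMSO (0.603% of all tested probe sets) and 1 for FICZ against TCDD (0.207%). In each case this was nr3c1.L, the gene of the glucocorticoid receptor, which rose with FICZ. It read 7.47, 7.78 and 7.45 with DMSO, 7.56, 7.52 and 7.59 with TCDD, and 8.18, 8.41 and 8.14 with FICZ. FICZ lay above both other groups without overlap, by 0.68 over DMSO (SE 0.13, limma adjusted p 0.023) and by 0.69 over TCDD (limma adjusted p 0.041), while TCDD and DMSO overlapped (-0.01). The call against DMSO was lost when any 1 FICZ array, or DMSO replicate 1 or 3, or TCDD replicate 3 was left out (highest limma adjusted p 0.18). The call against TCDD was lost when any 1 FICZ or TCDD array, or DMSO replicate 1, was left out (highest limma adjusted p 0.36). The other copy, nr3c1.S, read 4.71 to 5.54 with DMSO, 5.67 to 5.82 with TCDD and 5.92 to 5.96 with FICZ, with no overlap between groups. Its differences from DMSO were 0.70 with FICZ (limma adjusted p 0.28) and 0.52 with TCDD (limma adjusted p 0.97), with a low value on DMSO replicate 2. rxra.L, a retinoid X receptor gene, had a FICZ difference of 0.59 that did not pass (limma adjusted p 0.073), and the median of the list was 0.21. egr2.L and sox10.L, the genes of the main Schwann cell activators of myelin genes, lay below the filter, as did 5 of the 8 probe sets of Schwann cell and myelin markers.

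cldn5 also stands among endothelial markers, and there it parted from pecam1.L, the gene of an endothelial adhesion protein. pecam1.L rose 2.55-fold with FICZ (limma adjusted p 1.0e-04), from 6.52 to 6.74 with DMSO to 7.77 to 8.16, and was 2.05-fold above TCDD, while both cldn5 copies had negative FICZ differences. The other probe sets of that list, tek.S and flt1.L, lay below the filter. The summed linear signal of the whole list was 4294 to 4334 with DMSO, 4387 to 4600 with TCDD and 3911 to 4029 with FICZ. Without the cldn5 copies, that of the other 3 probe sets was 125 to 144 with DMSO, 131 to 168 with TCDD and 280 to 319 with FICZ. Of these 3 only pecam1.L lay above the filter. Most of the sum of the whole list was thus signal of the cldn5 copies, and its lower range with FICZ follows their values. Whether what raised the smaller sum has a part in the cldn5 values was not tested. Of 8 tested kidney epithelial marker probe sets none passed for FICZ against DMSO, nor did any of 8 tested fibroblast marker probe sets. Over all tested probe sets 0.603% passed, so lists of this size could hardly hold a call. With FICZ 5 of the 8 kidney differences lay above 0 and 3 below it (median 0.06), and all 8 fibroblast differences below it (median -0.12). For TCDD against DMSO 3 kidney differences lay above 0 and 5 below it (median -0.04). There 6 of the 8 fibroblast differences lay below 0, with a median of -0.19.

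The named probe sets most like pmp22.S over the 9 arrays were, in order of Pearson's r, syne1.L, the gene of a nesprin of the nuclear envelope, fam171a1.S, thbs3.L, a thrombospondin gene, daam1.S, a formin gene, sdc4.S, the gene of the cell surface proteoglycan syndecan 4, abcb1.L, a drug efflux pump gene, ctdspl.S, a phosphatase gene, and hip1r.L, which encodes a protein of clathrin-coated vesicles. Their r ran from 0.93 to 0.96 and Spearman's rho from 0.85 to 1.00. The 9 arrays fall into 3 groups, so r follows mainly the group means, and after the group means were removed it ran from 0.14 for daam1.S to 0.87 for thbs3.L. The SD of thbs3.L was 0.15 with DMSO, 0.014 with FICZ and 0.011 with TCDD, so its r within groups rests mostly on the DMSO arrays. These values describe likeness and carry no p. daam1.S had nearly the same differences as pmp22.S, 1.09 with FICZ and 0.49 with TCDD, whereas syne1.L had 2.80 and 0.57. Within the family r was 0.83 for the first emp1.L probe set, 0.78 for pmp22.L, 0.68 for emp2.L, -0.74 for cldn5.L and -0.82 for cldn4.L. It was weaker for emp3.L (0.29), the second emp1.L probe set (0.19), cldn6.1.L (-0.13), cldn7.L (-0.14) and cldn5.S (-0.41). After the group means were removed, r in the family ran from -0.86 for cldn4.L to 0.76 for pmp22.L. It was then 0.64 for the first emp1.L probe set, -0.81 for the second and -0.41 for emp2.L. The SD of pmp22.S was 0.25 with DMSO and 0.09 in each other group, so these values lean on the DMSO arrays. DMSO replicate 2 was the highest DMSO array for pmp22.S, pmp22.L and the first emp1.L probe set. It was the lowest for cldn4.L, emp2.L and the second emp1.L probe set. These r values without that array were not tested. cyp1a1.L had an r of 0.91, and of -0.21 after the group means were removed.

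**Figure D5:**
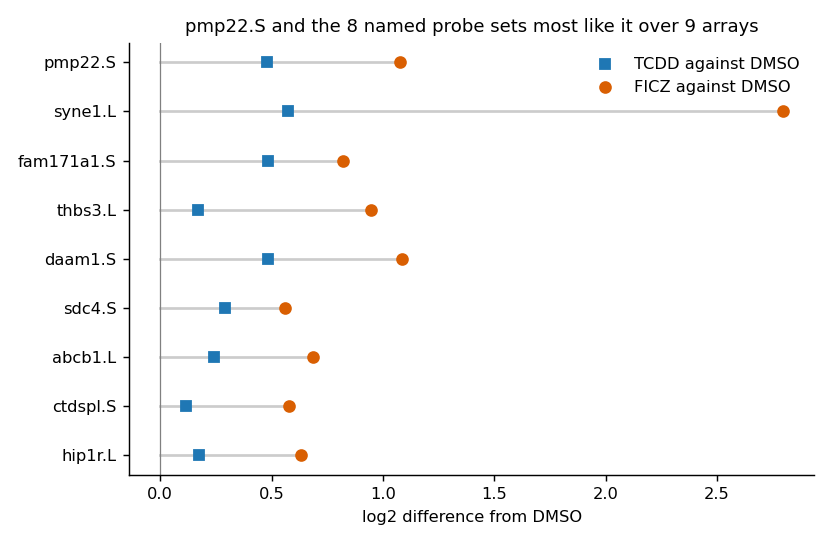
Log2 differences from DMSO (horizontal axis) with TCDD (blue squares) and FICZ (orange circles) for pmp22.S and the 8 named probe sets with the highest Pearson's r to it over 9 arrays. In each row the FICZ point lies to the right of the TCDD point, with daam1.S almost on the values of pmp22.S and syne1.L reaching 2.80. The DMSO mean of syne1.L lay just above the filter level.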

How the data were processed

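Total RNA of XLK-WG cells was labelled with biotin and measured on 9 Affymetrix Xenopus arrays, 3 per group. The submitters' processing notes name GCOS, with no version. Algorithm and scaling, not given in the sources used here, could change low values most. The authors deposited one log2 signal per probe set, from 0 to 13.627, where the base is judged from that range. Array medians ran from 6.66 to 6.86, so all 15611 probe sets were quantile normalized, and 120 controls were then left out. Of the rest, 9304 had 1 gene symbol in the platform annotation, 195 several and 5992 none, and 9227 were matched by gene identifier to the RefSeq table. R 4.3.3 and limma 3.58.1 were used for 1 linear model over the 9 arrays, with group as the factor and a variance trend in eBayes. Residual degrees of freedom were 6 and prior ones 7.83, with two-sided p-values adjusted by Benjamini-Hochberg over 11618 tested probe sets. The median SE of a difference was 0.14. With 3 against 3 arrays an exact permutation p is at least 0.1. Each p-value sets a difference of group means against the spread between arrays within groups. That spread was pooled over the 3 groups and drawn towards a trend over the tested probe sets.

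The fit was tested on simulated data made from the levels and spread of these arrays, where 38.8% of 1.5-fold and 81.5% of 2-fold changes among 11618 probe sets were called for FICZ against DMSO, with 4 false calls. For that comparison 67, 65 and 60 tested probe sets were given changes of 1.5-, 2- and 4-fold, and the share called depends on these numbers. The simulated noise was independent between probe sets and arrays, which leaves out shifts of a whole array. The members, lists and alternatives were chosen with earlier results of these data known. All members could be named; from each list, called genes and up to 4 with the smallest p; and the 8 named probe sets most like pmp22.S. Named genes outside that rule (tvp23b, cox10, metrnl, marker genes and the copies of a named gene) were chosen after their values were seen. Protein identity and promoter motifs, which were planned, were not analysed here. Tables and figures were made with pandas 2.3.3 and matplotlib 3.10.9 in Python 3.11.15. Alternatives were the normalization, the filter, the variance trend, array weights, the samples fitted, a replicate block and leaving out each array.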

Additional observations from a re-analysis of the deposited data

How the results depend on the processing

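Over 17 alternatives the differences of pmp22.S kept their sign, but many of these could not change them. A difference of group means stays the same under another filter, no variance trend, the replicate block or only the compared groups. It also stays the same when an array of the group not compared is left out. Leaving out 1 array gave 0.99 to 1.22 for FICZ against DMSO, 0.39 to 0.62 for TCDD against DMSO and 0.55 to 0.65 for FICZ against TCDD. Of the 10 tested relatives, 0 to 1 were called for FICZ against DMSO when 1 array was left out, and 0 in the other comparisons. With array weights, which called 154 and 358 of all tested probe sets, 1 relative was called for FICZ against DMSO and 4 for FICZ against TCDD. None of the relatives was called under the other alternatives. Of 30 differences of relatives, none of them called, 11 changed sign in 1 refit or more (23 of 498 refits). Many of these refits likewise could not change a difference.

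Over all probe sets, FICZ against DMSO gave 70 calls, 154 with array weights, 40 without the variance trend and 26 to 90 with 1 array left out. TCDD against DMSO gave 3, 22 with array weights, 1 without the trend and 3 to 7 with 1 array left out. FICZ against TCDD gave 24, 358 with array weights, 8 without the trend, 40 with only these groups fitted and 11 to 42 with 1 array left out. In the 5 lists together, regulators of PMP22 included, 2 of 71 tested probe sets were called for FICZ against DMSO (2.82%, against 0.603% of all tested). These 2 calls (cmtm7.S and the regulator gene nr3c1.L) became 5 with array weights, 0 without the trend, 0 with only these groups fitted and 0 to 3 with 1 array left out. On the deposited values 2 were called, cd82.L among them, so at least 1 of cmtm7.S and nr3c1.L was not called there. For FICZ against TCDD 1 of the 71 was called, nr3c1.L (1.41%, against 0.207% of all tested). This 1 call became 4 with array weights, 0 on the deposited values, 0 without the trend, 0 without a filter and 0 to 1 with 1 array left out. Leaving out an array or a group lowers the number of samples, and the cause of the other changes was not tested.

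Whether the replicate numbers in the titles pair the arrays is not known. Deviations from the group means of same-numbered arrays correlated at -0.27 to 0.48, highest for DMSO 1 and TCDD 1, which cannot decide it. The descriptions number the FICZ arrays differently. With the replicate block, 89, 4 and 28 probe sets were called for FICZ against DMSO, TCDD against DMSO and FICZ against TCDD, none of them a relative of pmp22.S, and in the lists 3, 0 and 1. The pmp22.S differences under the block, 1.08, 0.48 and 0.60, could not differ from the main ones, since every replicate number occurs in every group.

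Signal over background is unknown, which limits the probe sets near log2 4.88 and the 7 below it. With 3 arrays a group, 38.8% of simulated 1.5-fold changes were called for FICZ against DMSO, and the difference of emp2.L was 1.43-fold. That share is an average over probe sets with independent simulated noise, and it depends on how many changes were planted. How often a change in emp2.L would be called was not tested.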
